A study of Mus musculus with 14 samples.

Results

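The receptors described here are 6 mouse genes through which cells bind the constant part of IgG antibodies. They were chosen by symbol from the deposited count table: the activating receptors Fcgr1, Fcgr3 and Fcgr4, the signalling chain Fcer1g that these receptors share, the inhibitory receptor Fcgr2b, and Fcgrt, the heavy chain of the receptor that recycles IgG inside cells. All 6 were found among 22116 named genes, and all 6 were among the 15159 genes with enough counts to be tested. Their counts came from the poly(A) RNA of whole spleens of 14 wild-type female BALB/c mice aged 6 to 8 weeks, 1 library per mouse, in a series that sets models of psoriasis-like skin inflammation beside vehicle. The control group held 3 mice with petrolatum, the vehicle, on the back and both ears; the series' design text calls these mice untreated. The imiquimod-dorsal group held 4 mice whose back skin received 5% imiquimod cream, a Toll-like receptor 7 agonist, every day for 5 days. The imiquimod-ear group held 4 mice that received the same cream on the ear for 5 days. The IL-23-ear group held 3 mice given recombinant mouse IL-23, which maintains IL-17-producing T cells, by 4 intradermal injections of 1 µg per ear over 7 days. Libraries are named by group and by the replicate number of the labels, all of which place them in the same batch.

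An activating Fc receptor that is cross-linked by IgG bound to its antigen signals through the immunoreceptor tyrosine-based activation motif of Fcer1g, to which Src-family kinases and Syk are recruited. Fcgr2b carries an inhibitory motif instead and recruits the phosphatase encoded by Inpp5d, so the balance of the activating receptors and Fcgr2b sets how strongly a myeloid cell responds to an immune complex. In the spleen, macrophages, monocytes, neutrophils and dendritic cells carry activating receptors together with Fcgr2b, while B cells carry Fcgr2b as their IgG receptor. Fcgrt pairs with B2m, binds IgG at acidic pH in endosomes and returns it to the cell surface, which protects IgG from breakdown.

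Library totals over named genes ran from 28354674 to 40289411 counts, and 15862 to 16375 genes had at least 1 count. Each receptor gene had between 163 and 5638 counts in every library, so none was near the limit of 3 counts that a count of 0 would allow. Markers of the main cell types of the spleen were present in every group: the 8 B cell markers summed to between 3110 and 4420 CPM, the counts scaled to a common library size by TMM,, and the 12 red pulp macrophage markers to between 1660 and 2870 CPM. In whole tissue, fewer cells of a type and less RNA per cell cannot be told apart. The dorsal, ear and IL-23 comparisons with control all use the same 3 control libraries. No group was injected with vehicle alone. IL-23 also differed from imiquimod in route and days of treatment, so comparisons with the IL-23 group cannot separate agent, route and duration.

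Fcgr4, Fcgr2b, Fcgr3 and Fcer1g lie within 276.0 kilobases of mouse chromosome 1, from position 170786186 to position 171062219 in the GRCm39 build. Within that stretch, Fcgr2b spans chr1:170786186-170804177, Fcgr4 chr1:170846466-170857330, Fcgr3 chr1:170878738-170893549 and Fcer1g chr1:171057141-171062219. Fcgr4 is read from the plus strand and the other 3 from the minus strand. Fcgr1 lies apart at chr3:96190225-96201338 and Fcgrt at chr7:44742412-44756819, both on the minus strand. Exons of Fcgr2b share 355 bases, or 6.06% of its exon length, with Gm38204, a long non-coding RNA on the opposite strand. The libraries do not mark strand, so reads from that stretch cannot be assigned to either gene.

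Fcgr2b and Fcgr3 are close relatives, and their coding sequences hold stretches that are the same base for base. Of the 50-base windows of the canonical Fcgr3 transcript, 11.1% also occurred in that of Fcgr2b, and 4.95% of the Fcgr2b windows occurred in Fcgr3. No other pair of the 6 genes shared a 50-base window. The longest run that both coding sequences hold has 129 bases and encodes part of the extracellular region. It is shown because sequence inside it does not tell Fcgr2b from Fcgr3. It covers coding bases 278 to 406 of Fcgr2b and 263 to 391 of Fcgr3, crosses an exon boundary in both, and was read from the GRCm39 minus strand between chr1:170794243-170795650 for Fcgr2b and chr1:170881736-170885361 for Fcgr3.
Fcgr2b and Fcgr3 shared run: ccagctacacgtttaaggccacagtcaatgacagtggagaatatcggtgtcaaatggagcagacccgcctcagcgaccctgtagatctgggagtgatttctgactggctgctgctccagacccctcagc
Reads of 150 bases, if untrimmed, reach past this run. How reads that match both genes were counted is not given in the sources used here. The values of both genes may therefore contain a few reads of the other.

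The 250 bases before the transcript start are shown for Fcgr1 and Fcgr4, the activating receptors whose levels moved in opposite directions under dorsal imiquimod. The motifs searched on both strands, from 250 bases before to 50 bases after each start, were TTCNNNGAA, the GAS element bound by STAT factors, GAAA-NN-GAAA, the core of the interferon-stimulated response element, and GAGGAAG, a core of PU.1 sites. Capitals mark the matches, and positions are counted from the transcript start.
Fcgr1 promoter, chr3:96201339-96201588, minus strand, GRCm39: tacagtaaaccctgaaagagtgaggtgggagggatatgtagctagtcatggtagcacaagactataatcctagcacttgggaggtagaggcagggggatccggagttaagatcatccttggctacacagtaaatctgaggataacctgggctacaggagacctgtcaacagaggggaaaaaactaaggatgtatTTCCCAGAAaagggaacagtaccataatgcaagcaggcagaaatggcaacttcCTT
Fcgr4 promoter, chr1:170846216-170846465, plus strand, GRCm39: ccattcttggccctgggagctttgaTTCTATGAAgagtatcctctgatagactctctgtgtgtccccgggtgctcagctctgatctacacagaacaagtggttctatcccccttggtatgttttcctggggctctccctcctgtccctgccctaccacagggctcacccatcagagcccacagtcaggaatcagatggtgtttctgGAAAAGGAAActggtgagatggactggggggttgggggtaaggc
The Fcgr1 stretch held a GAS match beginning at base -56, and its last 3 capitals begin an opposite-strand PU.1 core that runs past the start. The Fcgr4 stretch held a GAS match beginning at base -225 and an interferon-stimulated response element core beginning at base -44, and an opposite-strand PU.1 core began at base 7 after the start, beyond the bases shown. Among the other 4 genes, Fcer1g had an opposite-strand PU.1 core at base -56, and these letters were not found in the windows of Fcgr2b, Fcgr3 and Fcgrt. Of 21623 promoter windows of 300 bases, 13.2% held the PU.1 core, 8.82% the GAS letters and 3.83% the response element core. The matches describe the sequence only.

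Dorsal imiquimod changed 4 of the 6 genes: Fcgr4, Fcgr2b and Fcer1g rose and Fcgr1 fell, while Fcgr3 and Fcgrt did not pass the threshold. Over all genes tested, 59.8% passed an adjusted p of 0.05 in this comparison, 32.3% as higher and 27.6% as lower, so that 4 of 6 is near the share among all genes. Fcgr4 rose 4.64-fold and Fcgr1 was 2.01-fold lower, and the groups did not overlap for either gene.

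Fcgr4, an activating receptor for immune complexes of IgG2a and IgG2b on monocytes, macrophages and neutrophils, was at 14.0, 24.6 and 28.2 CPM in control libraries 2, 4 and 5. It was at 160, 70.8, 85.8 and 96.3 CPM in dorsal libraries 2, 3, 4 and 5. Even the lowest dorsal library lay above every control library, and dorsal library 2 lay well above the other 3. The means were 22.3 ± 7.42 CPM (SD, n = 3) in the control group and 103 ± 39.3 CPM (SD, n = 4) in the dorsal group. The log2 fold change was 2.21 ± 0.30 (SE), with an adjusted p of 5.18e-05 by edgeR's quasi-likelihood test. It ran from 1.91 to 2.37 when each library in turn was left out, and it passed each time.

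Fcgr1, the high-affinity receptor that also binds monomeric IgG, was at 15.3, 19.8 and 22.3 CPM in control libraries 2, 4 and 5. In dorsal libraries 2, 3, 4 and 5 it was at 13.7, 7.17, 6.41 and 10.8 CPM. All 4 dorsal libraries lay below the control libraries, although dorsal library 2 and control library 2 were close. Means were 19.1 ± 3.55 CPM (SD, n = 3) and 9.52 ± 3.38 CPM (SD, n = 4), and the log2 fold change was -1.0 ± 0.35 (SE; edgeR adjusted p = 0.0242). The call was lost without control library 5 (-0.93, adjusted p = 0.0649), dorsal library 3 (-0.89, adjusted p = 0.0640) or dorsal library 4 (-0.86, adjusted p = 0.0639), and the direction stayed.

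Fcgr3, the low-affinity activating receptor found on most myeloid cells and natural killer (NK) cells, was at 23.2, 23.6 and 19.2 CPM in the control libraries. It was at 29.7, 34.4, 23.4 and 24.4 CPM in dorsal libraries 2, 3, 4 and 5. The groups met at the edge, with dorsal library 4 just under the highest control library. The log2 fold change was 0.35 ± 0.18 (SE) and did not pass (edgeR adjusted p = 0.106).

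Fcer1g, the chain that carries the activation motif for these receptors, was at 38.3, 43.5 and 51.0 CPM in control libraries 2, 4 and 5. Dorsal libraries 2, 3, 4 and 5 held 88.4, 50.3, 52.0 and 63.7 CPM. The groups overlapped, since dorsal library 3 lay under control library 5. Means were 44.3 ± 6.39 CPM (SD, n = 3) and 63.6 ± 17.6 CPM (SD, n = 4), with a log2 fold change of 0.52 ± 0.18 (SE; edgeR adjusted p = 0.0258). This call was lost in a fit of the control and dorsal libraries alone (0.47, adjusted p = 0.0768) and without control library 2 (0.38, adjusted p = 0.148), control library 4 (0.46, adjusted p = 0.0975), dorsal library 2 (0.32, adjusted p = 0.0716) or IL-23 library 3 (0.47, adjusted p = 0.0505).

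Fcgr2b, the inhibitory receptor, was at 64.7, 67.5 and 65.3 CPM in the control libraries, a narrow range. Dorsal libraries 2, 3, 4 and 5 held 126, 87.9, 103 and 107 CPM. Every dorsal library lay above every control library. Means were 65.8 ± 1.47 CPM (SD, n = 3) and 106 ± 15.6 CPM (SD, n = 4), and the log2 fold change of 0.69 ± 0.14 (SE) passed with an edgeR adjusted p of 0.00103 and with each library left out. Fcgrt, the recycling receptor, was at 92.8, 83.4 and 97.3 CPM in the control libraries and at 83.9, 101, 71.7 and 75.1 CPM in dorsal libraries 2, 3, 4 and 5. These ranges overlapped broadly, with a log2 fold change of -0.14 ± 0.16 (SE; edgeR adjusted p = 0.478).

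**Figure D1:**
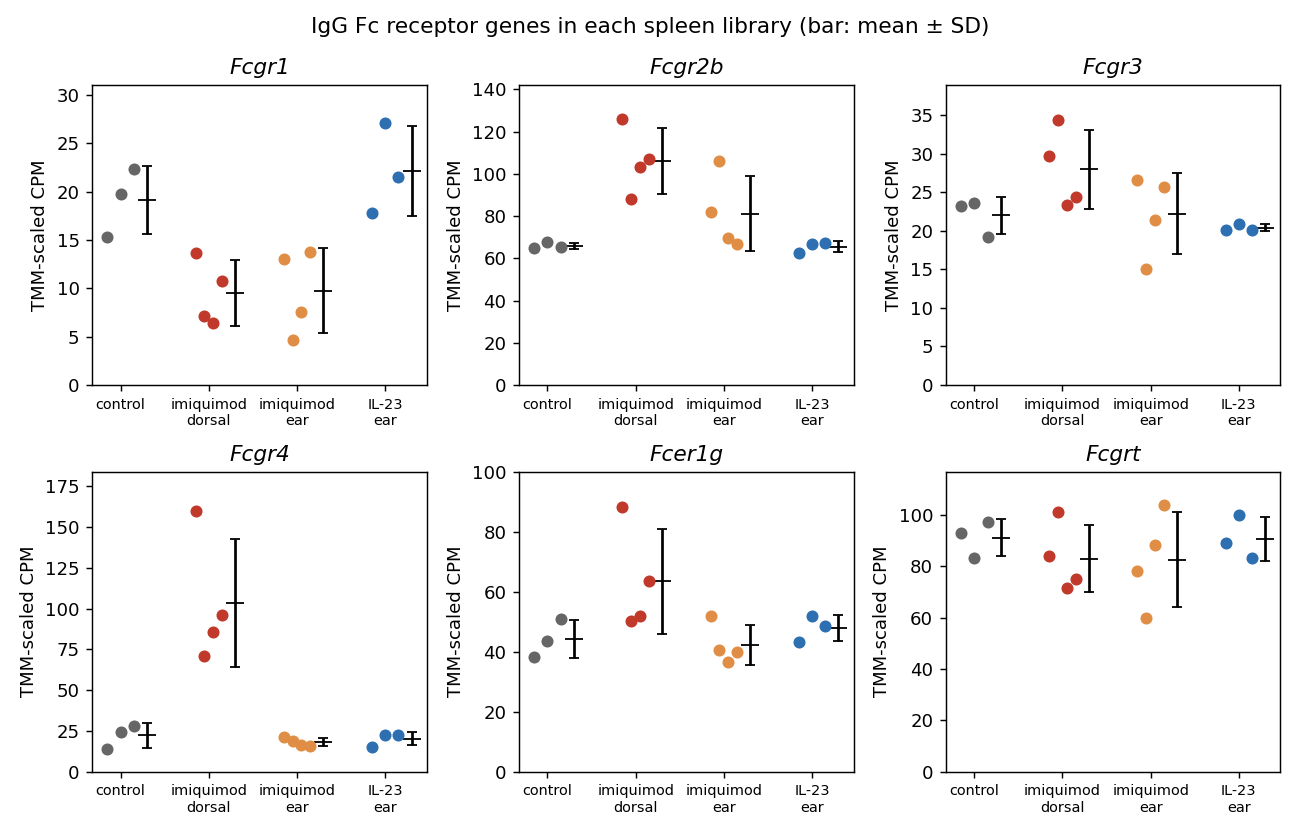
TMM-scaled CPM (y axis, from 0) of the 6 IgG receptor genes in the 14 spleen libraries by group (x axis); each point is 1 library and the bar beside it is the group's mean ± SD. The 4 imiquimod-dorsal libraries lie between 70.8 and 160 CPM for Fcgr4, above every other library, whereas Fcgr1 is lowest in both imiquimod groups.

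With imiquimod on the ear, 0 of the 6 genes passed by edgeR's quasi-likelihood test, against 21.2% of all genes tested (14.3% higher and 6.98% lower). Fcgr1 alone had an unadjusted p under 0.05. It was at 13.0, 4.68, 7.56 and 13.8 CPM in ear libraries 1, 3, 4 and 5, all under the lowest control library at 15.3 CPM. The mean was 9.78 ± 4.39 CPM (SD, n = 4), and the log2 fold change of -0.97 ± 0.35 (SE) had an edgeR adjusted p of 0.0654. DESeq2 (-0.99, adjusted p = 0.0150) and limma-voom (-1.05, adjusted p = 0.0380) called 1 of the 6, Fcgr1, as lower, as did edgeR without ear library 5 (-1.22, adjusted p = 0.0236). A value of similar size thus lay on either side of the threshold depending on the tool, and the adjusted p over all alternatives that left out a library ran from 0.0236 to 0.148.

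Fcgr4 in the ear group was at 21.3, 18.7, 16.6 and 15.7 CPM in libraries 1, 3, 4 and 5, within the range of the control libraries. Its log2 fold change was -0.30 ± 0.28 (SE; edgeR adjusted p = 0.481). Fcgr2b was at 82.1, 106, 69.8 and 66.6 CPM, so that 3 libraries lay above every control library and 1 between them. Its log2 fold change of 0.30 ± 0.14 (SE) did not pass (edgeR adjusted p = 0.150). The other 3 genes had log2 fold changes of 0.01 ± 0.18 for Fcgr3, -0.06 ± 0.18 for Fcer1g and -0.14 ± 0.16 for Fcgrt (SE), with edgeR adjusted p-values of 0.959, 0.830 and 0.554. Ear library 3 held the lowest Fcgr1, Fcgr3 and Fcgrt of its group, at 4.68, 15.1 and 59.9 CPM, together with the highest Fcgr2b.

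With IL-23 in the ear, 0 of the 6 genes passed by edgeR's quasi-likelihood test, and 0 had an unadjusted p under 0.05. DESeq2 and limma-voom also called 0, and only 0.0528% of all genes tested passed (0.0462% higher and 0.00660% lower). Fcgr1 was at 17.8, 27.1 and 21.5 CPM in IL-23 libraries 1, 2 and 3, and its range overlapped that of the control libraries. Its log2 fold change was 0.21 ± 0.37 (SE; edgeR adjusted p = 0.918). Fcgr4 was at 15.5, 22.7 and 22.4 CPM, inside the control range, with a log2 fold change of -0.14 ± 0.31 (SE; edgeR adjusted p = 0.935). The other 4 genes held 62.7 to 67.1 CPM for Fcgr2b, 20.1 to 20.9 for Fcgr3, 43.4 to 52.0 for Fcer1g and 83.2 to 100 CPM for Fcgrt, and all of these ranges overlapped the control libraries. The SEs of this comparison were 0.15 for Fcgr2b, 0.17 for Fcgrt, 0.19 for Fcgr3 and 0.20 for Fcer1g, whose log2 fold changes lay between -0.11 and 0.12.

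The treated groups were also compared with each other directly. Ear imiquimod gave a lower Fcgr4, Fcgr2b and Fcer1g than dorsal imiquimod, 3 of 6 genes where 47.7% of all genes tested passed (23.3% higher and 24.5% lower in the ear group). Fcgr4 was 5.71-fold lower with the cream on the ear, with a log2 fold change of -2.51 ± 0.28 (SE; edgeR adjusted p = 2.01e-05) and no overlap between the groups. Fcer1g was lower by a log2 fold change of -0.59 ± 0.17 (SE; edgeR adjusted p = 0.0120), although ear library 1 at 52.1 CPM lay above dorsal libraries 3 and 4. Fcgr2b was lower by a log2 fold change of -0.39 ± 0.13 (SE; edgeR adjusted p = 0.0268), and its groups overlapped through ear library 3. The Fcgr2b call was lost with the 2 imiquimod groups alone (-0.37, adjusted p = 0.0848) and without dorsal library 2 (-0.29, adjusted p = 0.0866), dorsal library 5 (-0.38, adjusted p = 0.0529), ear library 1 (-0.37, adjusted p = 0.0564), ear library 4 (-0.32, adjusted p = 0.0763) or ear library 5 (-0.29, adjusted p = 0.0901). Fcgr1 had a log2 difference of 0.04 ± 0.33 (SE; edgeR adjusted p = 0.933) between the imiquimod sites, Fcgr3 of -0.33 ± 0.16 (SE; edgeR adjusted p = 0.107) and Fcgrt of 0.00 ± 0.15 (SE; edgeR adjusted p = 0.982).

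Between IL-23 and imiquimod on the ear, 1 of the 6 genes passed, where 17.3% of all genes tested did (7.06% higher and 10.2% lower with IL-23). Fcgr1 was 2.26-fold higher with IL-23, and the lowest IL-23 library at 17.8 CPM lay above the highest ear imiquimod library at 13.8 CPM. The log2 fold change of 1.18 ± 0.35 (SE; edgeR adjusted p = 0.0362) missed the threshold in a fit of these 2 groups alone (1.18, adjusted p = 0.0777). It also missed it without ear library 3 (0.97, adjusted p = 0.0594), ear library 4 (1.07, adjusted p = 0.0712) or IL-23 library 1 (1.33, adjusted p = 0.0558), 2 (1.02, adjusted p = 0.104) or 3 (1.22, adjusted p = 0.0893).

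IL-23 on the ear gave a higher Fcgr1 and a lower Fcgr4, Fcgr2b and Fcgr3 than imiquimod on the back, 4 of 6 genes where 57.1% of all genes tested passed (27.1% higher and 30.0% lower with IL-23). Fcgr1 was 2.32-fold higher (log2 fold change 1.22 ± 0.35, SE; edgeR adjusted p = 0.00915) and Fcgr4 was 5.12-fold lower (log2 fold change -2.36 ± 0.31, SE; edgeR adjusted p = 3.32e-05). Fcgr2b was 1.62-fold lower (log2 fold change -0.69 ± 0.14, SE; edgeR adjusted p = 0.000996). The Fcgr3 difference of -0.46 ± 0.18 (SE; edgeR adjusted p = 0.0401) was narrow: the 3 IL-23 libraries held 20.1, 20.9 and 20.1 CPM and the lowest dorsal library 23.4 CPM. The call was lost without any 1 of the control or IL-23 libraries, dorsal library 2 or 3, or ear library 1 or 5, in 10 of 14 fits, with adjusted p-values from 0.0527 to 0.128 and log2 differences from -0.44 to -0.34. Fcer1g had a log2 difference of -0.41 ± 0.18 (SE; edgeR adjusted p = 0.0746), which passed without dorsal library 3 (-0.50, adjusted p = 0.0347) or dorsal library 4 (-0.49, adjusted p = 0.0427).

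**Figure D2:**
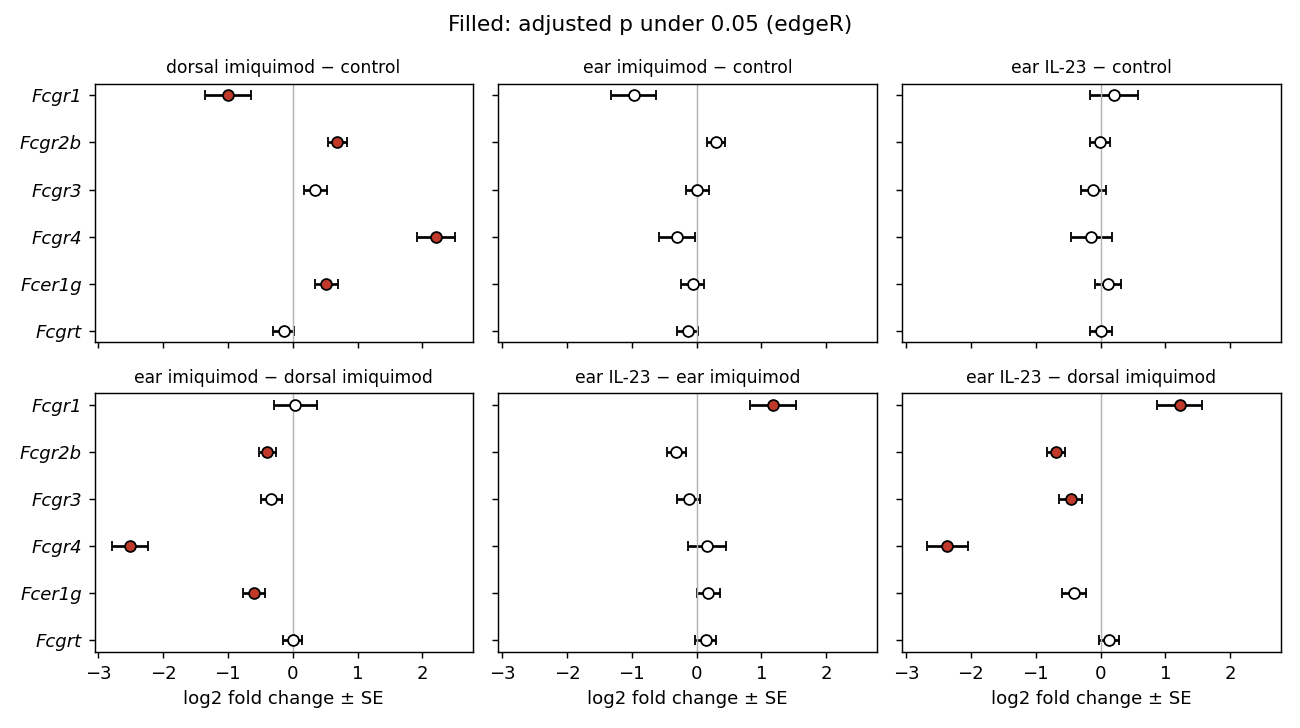
Log2 fold change ± SE (x axis) of the 6 IgG receptor genes (y axis) in the 6 comparisons between groups; filled points have an adjusted p under 0.05 by edgeR's quasi-likelihood test over 15159 genes. Fcgr4 stands at 2.21 for dorsal imiquimod against control and at -2.51 for ear against dorsal imiquimod, and no point is filled for ear imiquimod or IL-23 against control.

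The order of the 4 groups differed between the genes. For Fcgr4 it was dorsal imiquimod, control, IL-23 and ear imiquimod from high to low, and only the step from dorsal imiquimod to control was larger than the spread (edgeR adjusted p = 5.18e-05). For Fcgr1 it was IL-23, control, ear imiquimod and dorsal imiquimod, and none of the 3 steps between neighbours passed. For Fcgr2b the order was dorsal imiquimod, ear imiquimod, control and IL-23, with the first step past the threshold. For Fcgr3, Fcer1g and Fcgrt no neighbours in the order differed beyond the threshold.

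Levels of different genes were compared after dividing CPM by the length of each gene's merged exons. In the control libraries the shared chain Fcer1g was highest at 38.2 ± 5.52 CPM per kilobase, followed by Fcgrt at 18.5 ± 1.44, Fcgr4 at 17.4 ± 5.80, Fcgr2b at 11.2 ± 0.251, Fcgr3 at 7.11 ± 0.781 and Fcgr1 at 5.48 ± 1.02 CPM per kilobase (SD, n = 3). In that order Fcgr4 overlapped both its neighbours, and Fcgr3 overlapped Fcgr1. With the longest transcript as the length, Fcgr2b at 17.6 ± 0.394 and Fcgr4 at 17.4 ± 5.80 CPM per kilobase (SD, n = 3) changed places. In the dorsal libraries Fcgr4 came first with 80.7 ± 30.7 CPM per kilobase, Fcer1g second with 54.9 ± 15.2, and Fcgr1 was last with 2.73 ± 0.967 CPM per kilobase (SD, n = 4). The ranges of Fcgr4 and Fcer1g overlapped there.

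The make-up of the receptors was described as each gene's share of the counts per kilobase of merged exons of Fcgr1, Fcgr2b, Fcgr3 and Fcgr4. The level of a share depends on the length used. In the control libraries the mean log2 ratio of Fcgr4 to Fcgr2b was 0.57 by merged exons and -0.08 by the longest transcript. Fcgr4 made up 41.4% ± 8.22 in the control, 71.9% ± 4.88 in the dorsal, 37.1% ± 2.02 in the ear and 39.3% ± 3.64 in the IL-23 libraries (SD, n = 3, 4, 4 and 3). Fcgr1 made up 13.3% ± 0.586, 2.46% ± 0.413, 7.38% ± 3.24 and 15.8% ± 1.72 in the same order. The lowest dorsal library held an Fcgr4 share of 66.3% and the highest of all other libraries 48.2%. For Fcgr1 the highest dorsal share was 2.96% and the lowest of all other libraries was 3.44%, in ear library 3.

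Fcgr2b, the inhibitory member, made up 27.7% ± 4.38 of the 4 receptors in the control, 16.9% ± 2.39 in the dorsal, 36.5% ± 6.84 in the ear and 28.3% ± 2.56 in the IL-23 libraries (SD). Its CPM was highest in the dorsal libraries, where its share was lowest. The log2 ratio of the 3 activating receptors summed to Fcgr2b was 1.39 ± 0.31 in the control, 2.31 ± 0.26 in the dorsal, 0.81 ± 0.42 in the ear and 1.35 ± 0.18 in the IL-23 libraries (SD). The dorsal libraries, at 2.12 to 2.69, lay above all others, whose highest was 1.64. Relative to Fcgr2b, Fcgr4 was higher and Fcgr1 and Fcgr3 had lower means in the dorsal than in the control libraries. The log2 ratio of Fcgr4 to Fcgr2b was 0.57 ± 0.52 in the control and 2.10 ± 0.30 in the dorsal libraries, that of Fcgr1 to Fcgr2b -1.05 ± 0.27 and -2.79 ± 0.36, and that of Fcgr3 to Fcgr2b -0.67 ± 0.15 and -1.01 ± 0.38 (SD, n = 3 and 4). With the longest transcript in place of merged exons the means of the summed ratio were 1.00, 1.75, 0.43 and 0.96. The level of that ratio, but not the order of the groups, thus depended on the length used. The mean log2 ratio of Fcgr4 to Fcgr2b was then -0.08 in the control and 1.45 in the dorsal libraries. These ratios within a library are free of library scaling and are given without a test. In whole spleen Fcgr2b also comes from B cells. The shares and ratios therefore mix cell types and do not give the balance within a myeloid cell.

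The log2 ratio of the 3 activating receptors summed to their chain Fcer1g was -0.36 ± 0.16 in the control and 0.74 ± 0.10 in the dorsal libraries (SD). It was -0.60 ± 0.12 in the ear and -0.54 ± 0.11 in the IL-23 libraries (SD). The dorsal libraries were the ones above 0, with a lowest value of 0.65, and the highest of the rest was -0.21 in control library 4. Fcgr4 to Fcgr1 gave a geometric mean ratio of 3.08 in the control, 29.6 in the dorsal, 5.48 in the ear and 2.48 in the IL-23 libraries.

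**Figure D3:**
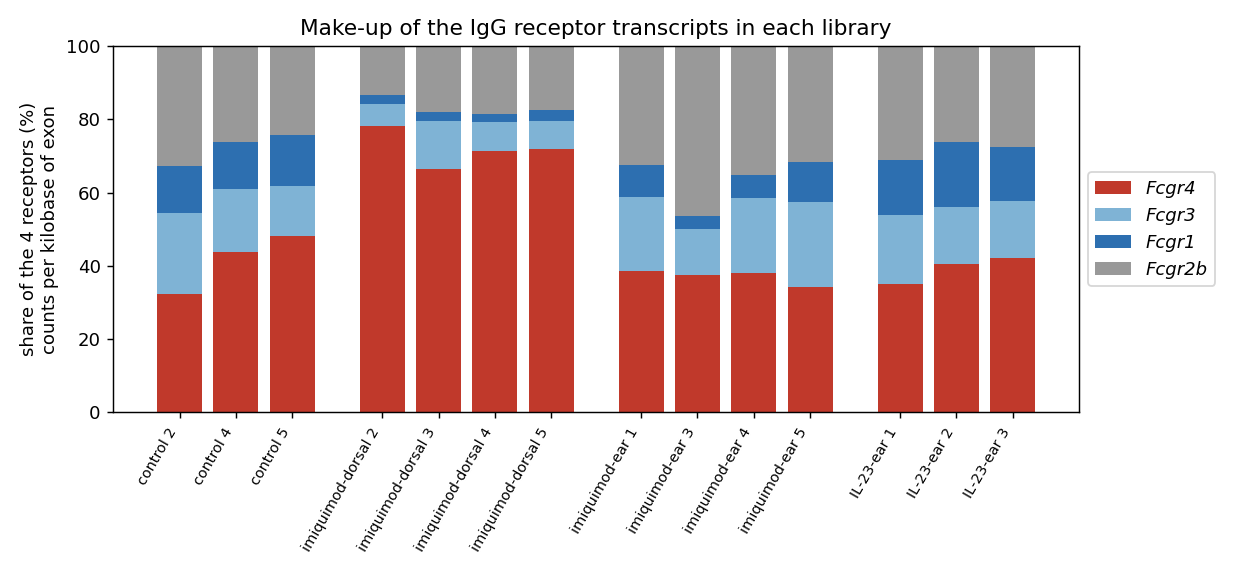
Share of the counts per kilobase of exon (y axis, percent) that each of the 4 IgG receptors takes in each of the 14 libraries (x axis); each bar sums the 4 receptors to 100%. Fcgr4 takes 66.3% to 78.1% in the 4 imiquimod-dorsal libraries and at most 48.2% elsewhere. The length is that of merged exons, and the level of the shares depends on it.

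Markers of cells that can carry the receptors, and genes induced by interferon, were read from the same libraries. Their counts stand beside 59.8% of all genes tested that passed in the dorsal, 21.2% in the ear and 0.0528% in the IL-23 comparison with control. All 10 neutrophil markers rose in the dorsal group, and their summed level was 114 to 165 CPM in the control, 1160 to 2100 in the dorsal, 151 to 627 in the ear and 133 to 457 CPM in the IL-23 libraries. In the ear group 5 of the 10 rose by edgeR, 6 by DESeq2 and 1 by limma-voom, and ear library 3, at 151 CPM, lay inside the control range. Dorsal library 3 had the highest neutrophil sum and the lowest Fcgr4 of its group. Of the 6 non-classical monocyte markers, Pou2f2 alone rose in the dorsal group, from 141 ± 13.2 to 229 ± 53.0 CPM (SD), and 4 of the other 5 had lower means there without passing, with a median log2 fold change of -0.12 over the list. In the ear group 2 of the 6, Cx3cr1 and Treml4, fell. The sum of the list, of which Pou2f2 was the largest part, was 299 to 315 CPM in the control, 339 to 450 in the dorsal, 273 to 309 in the ear and 285 to 291 CPM in the IL-23 libraries. Among the dorsal libraries, library 2 was highest and library 3 lowest in both this sum and Fcgr4. Dorsal libraries 4 and 5, with sums of 378 and 369 CPM, stood in the opposite order for Fcgr4. Of the 6 classical monocyte markers, 3 rose and 1 fell in the dorsal group (median log2 fold change 1.05), near the share among all genes. The gene that fell, Ly6c2, went from 98.8 ± 33.1 to 24.3 ± 2.36 CPM (SD). The sum of the list was 243 to 285 CPM in the control, 230 to 287 in the dorsal, 276 to 334 in the ear and 279 to 306 CPM in the IL-23 libraries. Of the 8 conventional dendritic cell markers, 1 rose and 6 fell in the dorsal group (median log2 fold change -1.07). Their sum was 413 to 474 CPM in the control, 359 to 493 in the dorsal, 325 to 450 in the ear and 382 to 438 CPM in the IL-23 libraries. The gene that rose, Sirpa, was the largest part of that sum and went from 233 ± 23.4 to 306 ± 49.6 CPM (SD). All 8 erythroid markers rose in the dorsal group, from a sum of 9430 to 30400 CPM in the control to 65200 to 110000 CPM in the dorsal libraries, against 6110 to 41700 in the ear and 2760 to 11200 CPM in the IL-23 libraries. None of these markers was at 0 in a whole group, and their part in the Fcgr4, Fcgr2b and Fcer1g results was not tested.

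The 10 interferon-induced genes all fell in the dorsal group, and 7 of them fell in the ear group. With IL-23, 0 of the 10 passed by edgeR, DESeq2 or limma-voom, and 0 had an unadjusted p under 0.05 in edgeR. Their summed level was 1450 to 2890 CPM in the control, 410 to 643 in the dorsal, 869 to 1220 in the ear and 2190 to 3650 CPM in the IL-23 libraries. Control library 2, with the lowest sum among the controls, also had the lowest Fcgr1 of the controls, and IL-23 library 2 was highest in both. Control library 4 had the highest sum of the controls, but its Fcgr1 was below that of control library 5. Within each of the other groups, the libraries ranked the same by this sum and by Fcgr1. The sums were 643, 411, 410 and 641 CPM in dorsal libraries 2, 3, 4 and 5. In ear libraries 1, 3, 4 and 5 they were 1120, 869, 997 and 1220 CPM. Between the imiquimod sites the mean sum was 526 ± 134 CPM in the dorsal and 1050 ± 151 CPM in the ear group (SD). Mean Fcgr1 was 9.52 CPM in the dorsal and 9.78 CPM in the ear group. Of the 12 red pulp macrophage markers, 1 rose and 1 fell in the dorsal group and 3 fell in the ear group, and their summed level was 2520 to 2870 CPM in the control, 1920 to 2650 in the dorsal, 1660 to 2540 in the ear and 2520 to 2780 CPM in the IL-23 libraries. The part of these genes in the Fcgr1 results was not tested. Of the 8 B cell markers, whose cells also carry Fcgr2b, 2 fell in the dorsal group, and they summed to 4150 to 4300 CPM in the control and 3110 to 3760 CPM in the dorsal libraries, where Fcgr2b rose; their part in the Fcgr2b result was not tested. All 6 NK cell markers fell in the dorsal group, from 165 to 231 CPM in the control to 47.2 to 73.4 CPM in the dorsal libraries, beside an Fcgr3 that did not pass.

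**Figure D4:**
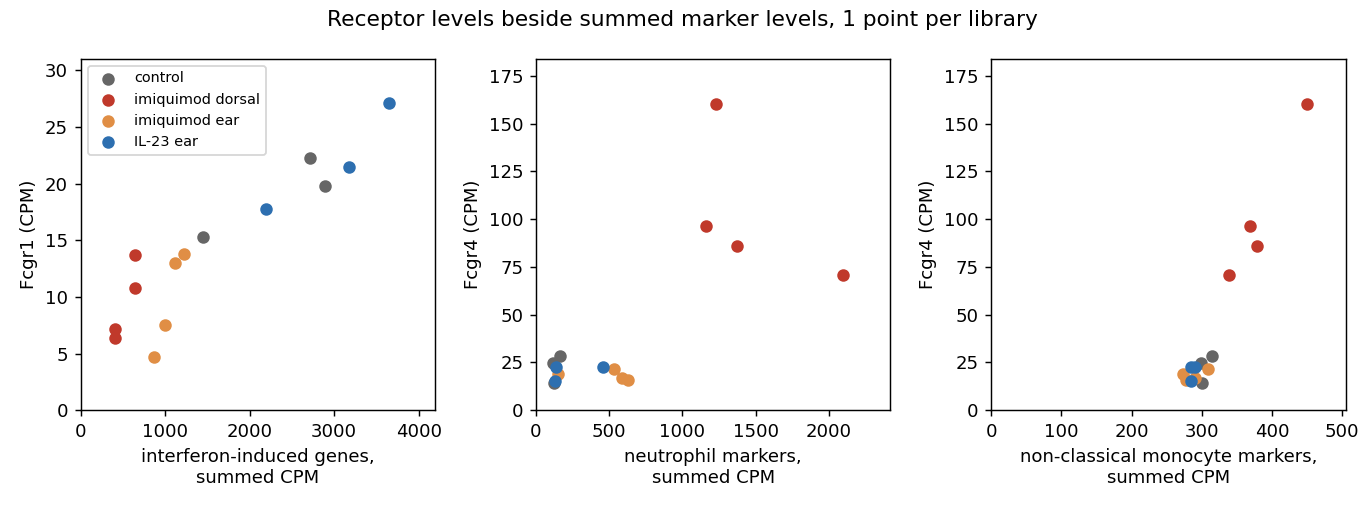
CPM of Fcgr1 (left, y axis) and Fcgr4 (middle and right, y axis) against the summed CPM of interferon-induced genes, neutrophil markers and non-classical monocyte markers (x axes), 1 point per library and colour by group. The dorsal library with the highest neutrophil sum, 2100 CPM, has the lowest Fcgr4 of its group at 70.8 CPM. The dorsal library with the highest monocyte sum, 450 CPM, has the highest Fcgr4 at 160 CPM. Pou2f2 is the largest part of the monocyte sum on the right.

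The genes most like each receptor were taken as those with the smallest root mean square difference in centred log2 CPM over the 14 libraries, among 12021 candidates. For Fcgr4 these were Cd300e, a receptor of monocytes, at 0.307 (Pearson r 0.963), Adissp at 0.410 (r 0.930) and Wfdc17 at 0.424 (r 0.926). For Fcgr1 they were Ifih1, a sensor of double-stranded RNA, at 0.230 (r 0.950), Lgals9, which encodes galectin-9, at 0.301 (r 0.919) and Gbp7, a guanylate-binding protein, at 0.316 (r 0.902). Fcgr1 and Ifih1 had dorsal log2 fold changes of -1.0 and -1.15 and ear log2 fold changes of -0.97 and -1.01. Fcgr2b was closest to Ahcyl2 at 0.105 (r 0.949), Sclt1 at 0.124 and Prkar2a at 0.127, Fcgr3 to Sort1 at 0.120 (r 0.913), Mtus1 at 0.137 and Prrg1 at 0.139, Fcer1g to Ehd1 at 0.152 (r 0.886), Anxa2 at 0.154 and Slc15a3 at 0.154, and Fcgrt to Ston2 at 0.103 (r 0.883), Lama2 at 0.111 and Tspan7 at 0.112. The 14 points of each likeness share libraries and groups, and genes that vary little come out close to many others.

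The ligands and partners of the receptors were read from the same fit. For the list counts here and below, 21.2% of all genes tested passed in the ear group (14.3% higher and 6.98% lower). With IL-23, 0.0528% passed. All 4 IgG constant genes rose in the dorsal group, with a median log2 fold change of 2.67 against 0 over all genes. Ighg2b went from 26.9 ± 4.76 to 437 ± 78.9 CPM (log2 fold change 4.02 ± 0.45, SE; edgeR adjusted p = 1.45e-05) and Ighg2c from 6.09 ± 2.53 to 268 ± 76.7 CPM (log2 fold change 5.47 ± 0.77, SE; edgeR adjusted p = 8.38e-05), while Ighg1 rose by 1.33 and Ighg3 by 0.81 on the log2 scale. All 4 also rose in the ear group, where Fcgr4 did not pass, by 2.22 for Ighg1, 3.18 for Ighg2b, 6.16 for Ighg2c and 1.96 for Ighg3 on the log2 scale. With IL-23, 0 of 4 passed by edgeR, DESeq2 or limma-voom, and 0 had an unadjusted p under 0.05 in edgeR. These genes are near-identical in part and may share reads, and BALB/c mice carry the IgG2a allotype at the locus that the reference lists as Ighg2c, so the split between them is uncertain. B2m, the partner of Fcgrt, fell in the dorsal group by 0.74 on the log2 scale (edgeR adjusted p = 1.93e-04), from 2350 ± 197 to 1410 ± 272 CPM, and did not pass in the ear group (-0.21, adjusted p = 0.250).

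Among other Fc receptors and Fc-binding proteins, 3 rose, 7 fell and 2 did not pass of 12 tested in the dorsal group, with a median log2 fold change of -0.78 against 0 over all genes, of which 32.3% rose and 27.6% fell. The IgM receptor Fcmr fell by 1.06 (adjusted p = 5.81e-07), Fcrl1, an Fc receptor-like gene of B cells, by 0.81 (adjusted p = 2.69e-06) and Fcamr, which binds IgA and IgM, by 1.32 on the log2 scale (adjusted p = 1.20e-05), all by edgeR. In the ear group 1 of 12 rose, Fcrla by 0.43, and 2 fell, Trim21, the cytosolic IgG receptor, by 0.73 and Fcmr by 0.23 on the log2 scale.

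Of 20 kinases and adaptors below the activating receptors, 3 rose, 9 fell and 8 did not pass in the dorsal group (median log2 fold change -0.15), so that 12 of 20 passed, close to the 59.8% among all genes. Syk, the kinase recruited to Fcer1g, rose by 0.41 on the log2 scale (edgeR adjusted p = 4.58e-04). Lat fell by 2.17, Plcg1 by 1.48 and Pik3cd by 0.65 on the log2 scale, and all 3 also serve T or B cell receptors. The 6 T cell markers of these libraries all fell in the dorsal group and summed to 508 to 754 CPM in the control and 109 to 141 CPM in the dorsal libraries, and their part in the Lat and Plcg1 values was not tested. In the ear group 1 of 20 changed, Pik3r1, which fell by 0.40 on the log2 scale.

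Of 8 inhibitory phosphatases and adaptors, 2 rose and 5 fell in the dorsal group, where 32.3% of all genes rose and 27.6% fell. Inpp5d, the phosphatase recruited by Fcgr2b, fell by 0.40 on the log2 scale (edgeR adjusted p = 1.93e-04), Dok2 fell by 1.40, and Dok1 and Ptpn11 rose by 0.66 and 0.56. In the ear group 1 of 8 changed, Dok3, which fell by 0.26 on the log2 scale. A further list of 11 tested genes held Tyrobp, a relative of Fcer1g, and receptors that use Fcer1g or Tyrobp. Of these 11, 4 rose and 1 fell in the dorsal group, a smaller share than the 59.8% among all genes. Clec4e, which senses mycobacterial glycolipid through Fcer1g, rose by 1.90, Trem1, a receptor of neutrophils and monocytes, rose by 1.85, and Ncr1 of NK cells fell by 1.78 on the log2 scale. Tyrobp itself had a log2 fold change of 0.15 (edgeR adjusted p = 0.169), and in the ear group Clec4n fell by 0.72 on the log2 scale, 1 of 11. With IL-23, 0 of the 55 tested genes of these 5 lists passed by edgeR, and 3 had an unadjusted p under 0.05. DESeq2 called 1 of them, Fcamr, which edgeR gave a log2 fold change of -0.60 (adjusted p = 0.296), and limma-voom called 0.

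**Figure D5:**
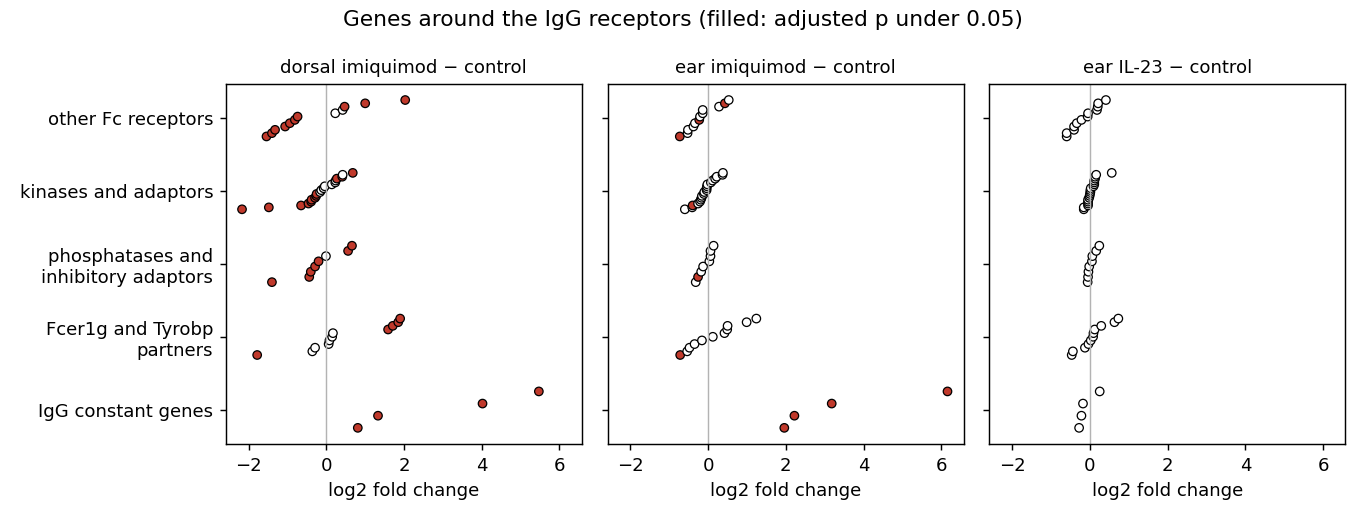
Log2 fold change against control (x axis) of the tested genes of 5 lists around the IgG receptors (y axis), 1 point per gene, for dorsal imiquimod, ear imiquimod and ear IL-23; filled points have an adjusted p under 0.05. All 4 IgG constant genes are filled in both imiquimod groups, and no point is filled for IL-23.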

How the data were processed

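Spleen poly(A) RNA of 14 mice was sequenced in pairs of 150-base reads without strand marking, per the labels' protocols, and the design text calls the samples biological replicates. The deposited table holds whole-number read counts per gene, not normalized. Build GRCm39 and the tools HISAT2 2.2.1, fastp 0.23.2, DESeq2 1.38.3, StringTie 2.2.1 and featureCounts 2.0.3 of Subread appear per the submitters' processing notes, where neither role nor setting is attached; the annotation is not given in the sources used here. The table has 22740 entries. The 624 without a gene name, with 0.484% to 0.674% of each library's counts, were left out, and 528 genes were named from GENCODE release M39, the source of coordinates, lengths and sequences.

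All 14 libraries entered 1 robust quasi-likelihood fit in edgeR 4.0.16 (R 4.3.3) with TMM scaling and a minimum count of 10. Benjamini-Hochberg adjustment ran over 15159 genes, and 0.05 was the threshold. The common biological coefficient of variation was 18.7%, with 10 residual degrees of freedom, and each SE is the log2 fold change over the root of its F statistic. No replicate pair agreed within sampling noise (chi-square divided by its degrees of freedom, 24.1 to 141.4). Floors of 3 counts cover counting error only. The fit was tested on simulated data with 200 changed genes. Alternatives were RLE size factors, DESeq2 1.42.0, limma-voom 3.58.1, no filter, haemoglobin and immunoglobulin genes taken out, the compared groups alone, a replicate block, each library left out, and, for ratios, the longest transcript.

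The receptors and gene lists were chosen with earlier results of these data known. Other genes named are the 3 most like each receptor among genes whose mean log2 CPM reached 1 (prior count 2), passing over predicted genes, the 3 called genes with the smallest adjusted p per list and comparison with control, and B2m, Syk, Inpp5d, Tyrobp and the IgG constant genes. Fcrl6 and Oscar did not pass the minimum count.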

Additional observations from a re-analysis of the deposited data

Results flagged for a closer look

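The change from control to dorsal imiquimod and that from control to ear imiquimod share their controls, and they differed for 3 of the 6 receptor genes by the direct test of ear against dorsal libraries, where 47.7% of all genes passed, so that the count is near the share among all genes. The ear minus dorsal log2 difference was -2.51 for Fcgr4 (edgeR adjusted p = 2.01e-05), -0.59 for Fcer1g (adjusted p = 0.0120) and -0.39 for Fcgr2b (adjusted p = 0.0268). In both groups of 4, Dixon's ratio flagged no library for any of the 6 genes, over 12 sets of values. With 4 values per set only a very large gap can be flagged, so this does not show that no library stood apart. For Fcgr4, dorsal library 2 at 160 CPM was not flagged, although the other 3 dorsal libraries held 70.8, 85.8 and 96.3 CPM.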

How the results depend on the processing

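Of 504 fold changes of the 6 genes with a library left out, 474 kept their side of the threshold, 27 lost the call and 3 gained it. Some small uncalled values changed sign, such as Fcgr3 in ear against control, which ran from -0.11 to 0.13. The Fcgr4 calls were never lost. Ranges with a library left out were -1.23 to -0.86 for Fcgr1 and 0.32 to 0.62 for Fcer1g (dorsal against control), -1.22 to -0.77 for Fcgr1 (ear against control), -0.52 to -0.29 for Fcgr2b (ear against dorsal), 0.97 to 1.42 for Fcgr1 (IL-23 against ear), and -0.53 to -0.34 for Fcgr3 and -0.50 to -0.21 for Fcer1g (IL-23 against dorsal). With the compared groups alone, Fcer1g was at 0.47 (dorsal against control), Fcgr2b at -0.37 (ear against dorsal) and Fcgr1 at 1.18 (IL-23 against ear), each short of the threshold. Fcgr1 in ear against control passed with DESeq2 (-0.99) and limma-voom (-1.05). Fcgr3 in IL-23 against dorsal missed it without a filter (-0.42) and without haemoglobin and immunoglobulin genes (-0.43). RLE size factors changed no call among the 6 genes. No call reversed its direction, and the cause of these shifts was not tested.

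The deviations of 13 same-numbered pairs of libraries correlated with r from -0.24 to 0.18, with 1 pair over 0.1. Those of 60 differently numbered pairs had r from -0.23 to 0.22, with 6 over 0.1. Same-numbered libraries were thus no more alike than others, but so few libraries cannot show that the numbers mark nothing shared. With a replicate block, Fcgr2b in ear against dorsal (-0.38, adjusted p = 0.0792) and Fcgr3 in IL-23 against dorsal (-0.54, adjusted p = 0.0640) missed the threshold and no other call of the 6 genes changed. The block moved the genes called from 3219 to 311 in ear against control, from 8 to 0 in IL-23 against control and from 2623 to 1261 in IL-23 against ear. It also leaves fewer than the 10 residual degrees of freedom of the main fit.

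The background share of called genes also moved. In ear against control, 3219 genes became 1126 with the compared groups alone, 1389 or 1066 without control library 2 or 4, 1904 or 1975 without ear library 1 or 3, and 4977 without ear library 5. In IL-23 against ear, 2623 became 1247 with the compared groups alone, 1396, 1654 or 4463 without ear library 1, 3 or 5, and 1326, 1647 or 1101 without IL-23 library 1, 2 or 3. In IL-23 against control, 8 became 134 with DESeq2, 14 with limma-voom, 0 with RLE size factors, no filter or the compared groups alone (1244, 1280 and 1456 with an unadjusted p under 0.05 in edgeR), and 0 to 12 with a library left out.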

Other observations

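The stretch of chromosome 1 that holds Fcgr2b, Fcgr4, Fcgr3 and Fcer1g has 7 other coding genes in the count table, of which 6 were tested. In the dorsal group Cfap126 rose by 0.86 (edgeR adjusted p = 0.00314) and Sdhc, a subunit of succinate dehydrogenase, by 0.46 (adjusted p = 5.33e-05), Nr1i3 fell by 1.94 on the log2 scale (adjusted p = 0.0339), and the other 3 did not pass. These 3 of 6 lie under the 59.8% of all genes called in that comparison, and limma-voom called 2 of the 6. In the ear and IL-23 groups 0 of the 6 passed by edgeR, DESeq2 or limma-voom, and 1 in the ear and 0 in the IL-23 group had an unadjusted p under 0.05 in edgeR. These 3 genes were singled out after their values were seen.

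Fcrl5, an Fc receptor-like gene of B and plasma cells, was also singled out after its values were seen. It went from 24.5 ± 5.27 CPM (SD, n = 3) in the control to 100 ± 34.2 CPM (SD, n = 4) in the dorsal libraries, with a log2 fold change of 2.03 ± 0.31 (SE; edgeR adjusted p = 1.15e-04). It was at 35.3 ± 10.2 CPM (SD, n = 4) in the ear libraries (log2 fold change 0.53 ± 0.29, SE; adjusted p = 0.219). The 7 plasma cell markers summed to 1250 to 1510 CPM in the control, 967 to 1520 in the dorsal and 3120 to 4690 CPM in the ear libraries, where all 7 rose, and their part in the Fcrl5 and IgG values was not tested.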
